A study of Mus musculus and Homo sapiens with 4 samples.

Results

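The vault RNAs VTRNA1-1, VTRNA1-2 and VTRNA1-3 and the Y RNAs RNY1, RNY3, RNY4 and RNY5 were followed through the capture of tagged ribosomes from HEK cells. They were chosen by their 7 Ensembl transcript identifiers, out of 194871 transcripts counted in the HEK libraries. The identifiers and not a measured value pick them, although they were put forward with earlier results of these data known. The files list identifiers and no gene names, so the names are those given with the choice and were not checked against a name table. All 7 transcripts were found, and none of them has a counted coding region, so the reads of the whole transcript were used. The class of transcripts without a coding region, used below for comparison, means those for which the files count none. It can hold mRNAs as well as noncoding RNAs, and the files do not tell them apart.

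The study sequenced ribosome footprints, the pieces of RNA left after RNase I digestion of lysates. HEK is a line derived from human embryonic kidney, and both HEK groups were grown in DMEM with 10% serum; the labels name no inhibitor treatment, genotype or clone for them. In the input group, digested lysate was passed over a size exclusion column, and in the bound group assembled ribosomes were then pulled down with streptavidin by a tag carried on their large subunit. Each group is 1 library and the labels do not say whether both came from the same cells, so there is no replicate check and every comparison is between these libraries. Because the libraries are bulk, a read count within a library does not tell fewer cells with an RNA from less RNA per cell. The identity of the cells was not checked against marker genes, because the identifiers could not be paired with gene names.

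Vault RNAs and Y RNAs are short noncoding RNAs made by RNA polymerase III. Vault RNAs are carried in part in vaults, very large hollow particles whose shell is built from the major vault protein. Y RNAs are bound by the Ro60 protein, which takes part in the surveillance of misfolded noncoding RNA, and by the La protein at their uridine-rich end. Neither family is known to be translated. The bound and input libraries ask which reads travel with the tagged large subunit, and these RNAs serve as examples of particles other than ribosomes.

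The input library held 17446956 transcript counts and the bound library 30208713. Each ratio of bound over input was divided by that of the median coding region, taken over those with 100 or more summed reads, which was 1.99, so that a ratio of 1 is the coding level. Intervals are two-sided 95% exact (Clopper-Pearson) counting intervals. They cover counting error only, and amplified copies of a fragment are not independent molecules. Reads and ranks by reads are given as numbers and do not compare the levels of different RNAs, because transcript lengths were not used here.

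RNY5 carried nearly all of the reads of the 7 RNAs and was far lower after capture. The input held 66206 reads of it and the bound library 2544, or 99.9% and 99.3% of all reads of the 7 RNAs. The other 6 RNAs had 39 input and 18 bound reads between them. The vault RNAs had few reads, and these too were lower after capture in sum, while RNY4 could not be placed and RNY1 and RNY3 were listed at 0 in both libraries.

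**Figure D1:**
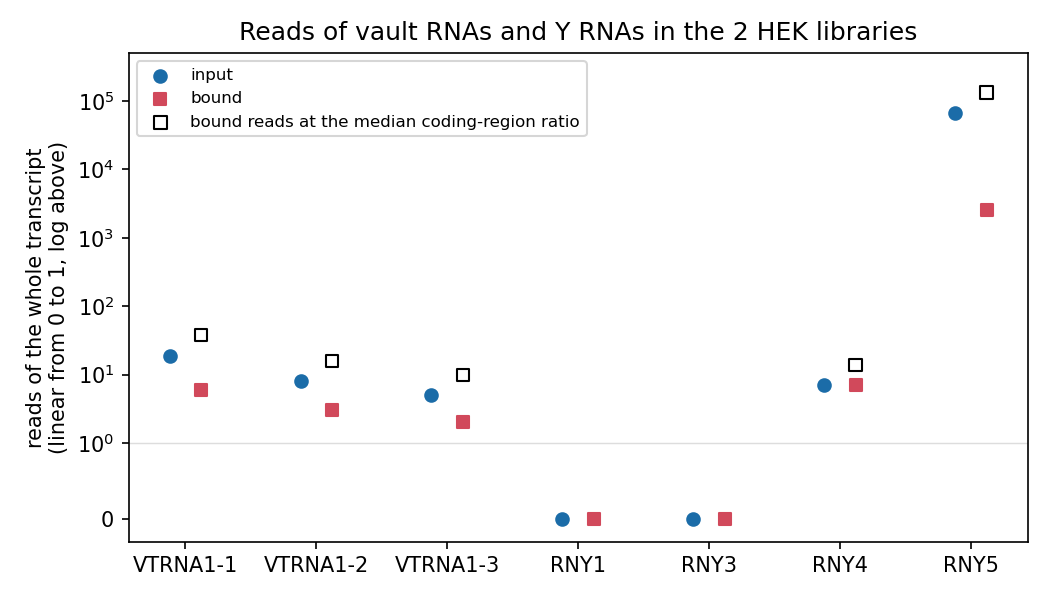
Reads of the whole transcript (vertical axis, linear from 0 to 1 and logarithmic above) for each of the 7 RNAs in the input (circles) and bound (filled squares) libraries; open squares give the bound reads each RNA would have at the ratio of the median coding region. RNY5, at 66206 and 2544 reads, stands far above the others, and the filled square lies below the open one in each of the 5 RNAs with reads.

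RNY5 (ENST00000516501.1) is the Y RNA known to associate with the ribosomal protein RPL5 and with surveillance of 5S ribosomal RNA. Its 66206 input reads are 0.379% of the transcript counts and its 2544 bound reads 0.00842%. Had it kept the ratio of the median coding region, the bound library would have held 131628 reads of it. Its bound/input ratio was 1.93% of that of the median coding region (95% exact interval 1.86 to 2.01%), or 51.7-fold lower (interval 49.7 to 53.9). The interval leaves out the uncertainty of the scaling; the choice of scaling moved the ratio by more than the interval only for total counts, under which it was 0.0222 in place of 0.0193.

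The rank of RNY5 differed widely between the libraries. In the input, where its share had a 95% exact interval of 0.377 to 0.382%, it was number 3 by reads among 119401 transcripts without a coding region. After capture, with a share between 0.00810 and 0.00876%, it was number 643. No other transcript has the same pair of counts.

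Among the transcripts compared, a loss as large as that of RNY5 was rare. RNY5 was the 1 member that reached the minimum of 100 summed reads, and it passed the 2-fold threshold, as did 1.65% of all 48823 features compared. The share was 0.864% for coding regions and 2.58% for the 22331 transcripts without a coding region. A ratio below that of RNY5 was found in 29 of those 22331 transcripts (0.130%) and in 2 of 26492 coding regions. Of the 29, 9 had at least 1000 summed reads, as did 3110 of the class. The median log2 ratio was 0.0043 for transcripts without a coding region, against -5.69 for RNY5. Some listed transcripts have the same counts as others, so these shares are over listed entries and not over distinct RNAs.

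Among the abundant transcripts of this class RNY5 stood at the low end. Abundance was taken as input reads plus scaled bound reads, so that reads of either library count. It was not adjusted for transcript length. Of 67 transcripts for which no coding region is counted and which had at least 10000 such reads, 18 were at least 2-fold lower on capture, none was 2-fold higher, and 13 had a ratio of 0.1 or less. RNY5 was number 2 from the lowest. The transcripts on either side of it in that order, picked by their place in it, were ENST00000361789.2 and ENST00000387342.1. The first had 11260 input and 406 bound reads, and its ratio was 1.81% of that of the median coding region. Its 95% exact interval of 1.64 to 2.003% overlaps the interval of RNY5. The second had 22577 and 1011 reads, 2.25% (interval 2.11 to 2.40%), and its interval lies above that of RNY5.

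Transcripts with neighbouring identifiers give another comparison. The members' identifiers fall in blocks of identifier numbers that run from ENST00000362000.5 to ENST00000365739.2 and from ENST00000516000.1 to ENST00000517000.2, which hold 2626 other transcripts for which the files count no coding region. What these RNAs are was not established from names, and the blocks can hold mRNAs as well as small RNAs. Some pairs among these transcripts have the same counts, such as ENST00000364329.1 and ENST00000364722.1. The same reads may therefore enter the shares and the sum below more than once. Of the 45 with at least 100 summed reads, 31 fell at least 2-fold on capture (68.9%), so that the direction of RNY5 was the common one there. Its size was not shared: the ratios of these 45 ran from 0.0272 to 2.15 with a median of 0.208 (taken with a prior of 0.5 scaled reads), and none was below the 0.0193 of RNY5. Summed, the other transcripts of the blocks had 110779 input and 27417 bound reads, 8.03-fold lower. RNY5 made up 37.4% of the blocks' input reads and 8.49% of their bound reads. The ratio of that sum was 6.44 times that of RNY5 (exact conditional 95% interval 6.18 to 6.72). This interval takes the summed counts as separate reads and compares these libraries only.

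**Figure D2:**
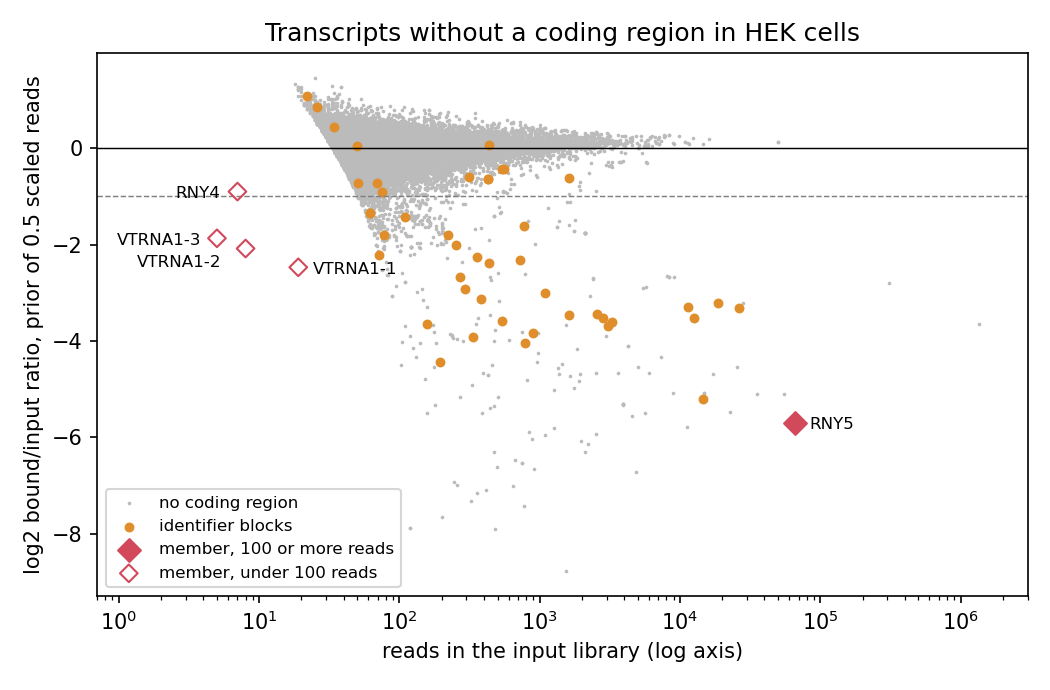
Log2 bound/input ratio (vertical axis, with a prior of 0.5 scaled reads) against input reads (horizontal log axis) for the 22331 transcripts without a coding region and at least 100 summed reads (grey), those of the identifier blocks (orange) and the members (diamonds; open ones are under 100 reads and outside the comparison). The solid line marks the median coding region and the dashed line a 2-fold lower ratio. RNY5 lies at -5.69, below every orange point.

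The vault RNAs had only a few reads each in both libraries. The bound counts of VTRNA1-2 and VTRNA1-3 were not above 3 reads, the floor given below to a count of 0. VTRNA1-1 (ENST00000363120.1), a vault RNA also known to bind the autophagy receptor p62, had 19 input and 6 bound reads. At the coding ratio 37.8 bound reads would have been counted. Its ratio was 0.159 (95% exact interval 0.0519 to 0.414), 6.30-fold lower, and the whole interval lay past the 2-fold threshold.

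VTRNA1-2 (ENST00000365241.1), a paralogue of VTRNA1-1, had 8 input and 3 bound reads. Its ratio of 0.189 had an interval of 0.0322 to 0.786, which lies below 1 but includes changes smaller than 2-fold. VTRNA1-3 (ENST00000365645.1), the remaining paralogue, had 5 and 2 reads and a ratio of 0.201, and its interval of 0.0192 to 1.23 includes no change. For VTRNA1-3 a difference from the coding level was therefore not detectable at this depth.

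Together the 3 vault RNAs had 32 input and 11 bound reads, where the coding ratio would have given 63.6. The summed ratio was 0.173 (95% exact interval 0.0786 to 0.352), 5.78-fold lower. Without VTRNA1-1 it was 0.193 (interval 0.0540 to 0.578). The shares of the 3 RNAs within the family had wide intervals that overlapped between the libraries. VTRNA1-1 gave 59.4% of the vault RNA reads before capture (interval 40.6 to 76.3%) and 54.5% after it (23.4 to 83.3%).

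RNY4 (ENST00000516507.1), another of the Ro60-bound RNAs, had 7 reads in each library. Scaled, its ratio was 0.503, and the interval of 0.151 to 1.68 includes both no change and a loss of several fold. RNY1 (ENST00000364228.1) and RNY3 (ENST00000365484.1), which belong to the same family and are known to act in the initiation of DNA replication, were listed at 0 in both libraries. A count of 0 was given a floor of 3 reads, about the one-sided 95% limit of such a count, which is 0.172 per 1000000 transcript counts in the input and 0.0993 per 1000000 in the bound one. No ratio was computed for them.

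Zero counts were frequent among their neighbours in the list. Of the 2626 other transcripts of the identifier blocks, 2400 (91.4%) had 0 reads in both libraries, against 39.2% of 119394 transcripts without a coding region that are not members. The human genome carries many near copies of the Y RNA genes, and the sources used here do not say how the authors counted reads that match several places. The numbers for all 4 Y RNAs, zeros included, are therefore uncertain as measures of the RNA in the cell, and the part of this in them was not tested. How such reads were counted is equally unknown for the vault RNA paralogues.

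The 4 members with fewer than 100 reads were set beside transcripts of the same depth. Of these 4, the 3 vault RNAs had a ratio of 0.5 or less, and RNY4 lay just outside that line. Among 15302 other transcripts without a coding region that had 7 to 25 summed reads and at least 1 in each library, 23.1% had such a ratio. In the identifier blocks the share was 39.5% of 38. This range of reads was set from the members' own counts. With RNY5 included, 4 of the 5 members with a read in each library passed the 2-fold line, as did 10.3% of all 117505 features with a read in each (10.1% with the scale taken from such coding regions) and 12.3% of those without a coding region. At such depth a ratio past 2-fold is common. The sum over the vault RNAs rests on more reads than any 1 of them, 32 and 11, but no such share was computed at its depth.

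**Figure D3:**
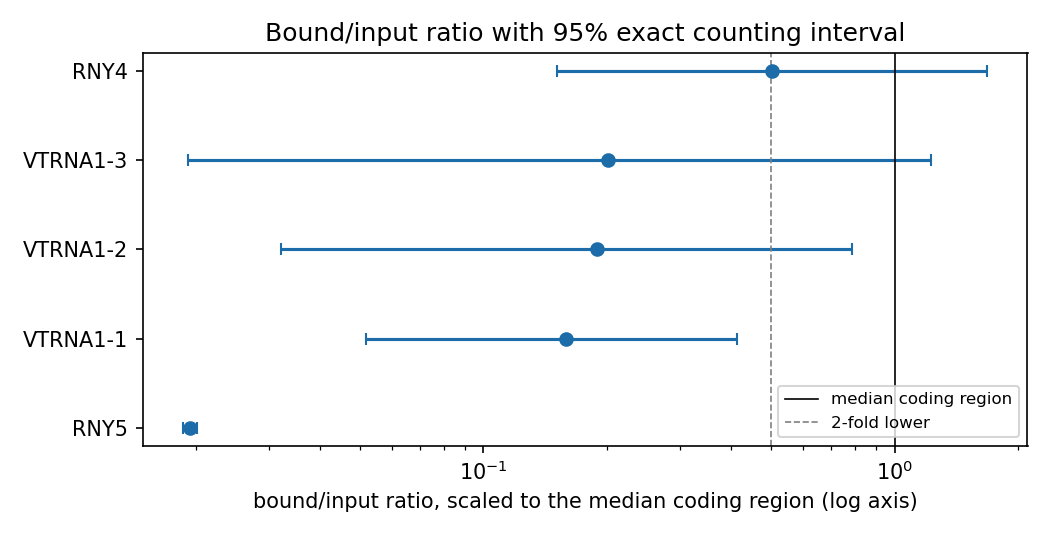
Bound/input ratio (horizontal log axis, scaled to the median coding region) with its 95% exact counting interval for the 5 RNAs with reads. RNY5, VTRNA1-1 and VTRNA1-2 have intervals below 1, and those of VTRNA1-3 and RNY4 cross it.

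The order of the ratios ran from RNY5 through VTRNA1-1, VTRNA1-2 and VTRNA1-3 to RNY4. Ratios between members do not depend on the scaling, and 10 pairs were compared by the exact conditional 95% interval of the odds ratio. The ratio of VTRNA1-1 was 8.22 times that of RNY5 (interval 2.68 to 21.4), and that of RNY4 was 26.0 times (7.78 to 87.0). For VTRNA1-2 against RNY5 the value was 9.76 (1.67 to 40.7), and for VTRNA1-3 it was 10.4 (0.991 to 63.6), an interval that includes 1. Past RNY5, no neighbours in the order differed beyond counting error. VTRNA1-2 against VTRNA1-1 gave 1.19 (0.153 to 7.42), VTRNA1-3 against VTRNA1-2 gave 1.07 (0.0662 to 13.3) and RNY4 against VTRNA1-3 gave 2.50 (0.267 to 33.4).

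By family, the vault RNAs fell by less than RNY5. Their summed ratio was 8.95 times that of RNY5 (exact conditional 95% interval 4.06 to 18.2). At the ratio of RNY5 the vault RNAs would have had 1.23 bound reads in place of 11, and RNY4 0.269 in place of 7. The summed Y RNA ratio of 0.0194 is that of RNY5, which held 99.99% of the family's input reads; without it the Y RNA ratio is the 0.503 of RNY4. RNY4 against the vault RNA sum gave 2.91 (interval 0.684 to 12.1), which includes 1.

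The median log2 ratio of the 5 RNAs with reads was -2.08, that of VTRNA1-2, with a prior of 0.5 scaled reads. At this depth it moves with the prior, to -2.41 with a prior of 0 and -0.998 with a prior of 5, and the transcripts nearest to it move too. The 2 transcripts without a coding region, outside the set and with at least 100 summed reads, whose log2 ratio was nearest to the first of these values over the 2 libraries were ENST00000470042.1, at -2.08 with 76 and 35 reads, and ENST00000491652.1, at -2.07 with 139 and 65 reads.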

How the data were processed

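The authors deposited raw read counts for each transcript and its parts, per the file headers. The submitters' processing notes list TopHat2 2.0.7, Bowtie2 2.0.6, CASAVA 1.8 and, as builds, hg19 and mm10, with no step assigned to any. How reads were counted, in which annotation release, and what was done with reads matching several places was not given in the sources used here. The 2 HEK libraries were used. The members and lists were chosen with earlier results of these data known. All 7 members are named, with the 2 transcripts nearest their median log2 ratio; partner proteins (MVP, PARP4, TEP1, RO60, SSB) and sequences were to be added, but no table used here pairs human transcripts with symbols or sequences. Ratios are of counts as deposited; log2 values add a prior of 0.5 scaled reads. A 0 was given a floor of 3 reads. With 1 library per group there is no p-value. Calculations used Python 3.11.15, SciPy 1.17.1 and, for TMM scaling, edgeR 4.0.16, and were tested on simulated data. Alternatives were other scalings, minimums, priors and thresholds; all pairs of members, the depth-matched background, the choice of abundant transcripts by reads of both libraries, the sum of the identifier blocks against RNY5 and the sum of all members without RNY5 were added after seeing the data.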

Additional observations from a re-analysis of the deposited data

How the results depend on the processing

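No paired analysis was possible because the input and the bound group hold 1 library each. Of 89 alternative values, 82 stayed within the counting interval of the reported ratio or within 1.5 times the reported count, and none changed direction. For the 4 members with 7 to 25 reads the intervals are far wider than any shift from the scalings. Their values could hardly leave them, so this count does not measure how firm those ratios are. Scaling to total counts shifted all log2 ratios up by 0.20 and gave a ratio of 0.0222 for RNY5, 0.0223 for the Y RNA sum and 0.0223 for all members. Over the 8 other scalings the vault RNA sum ran from 0.167 to 0.199. Without RNY5 the Y RNA sum was 0.503 and the sum of all members 0.232 in place of 0.0195. With a minimum of 1 read in each library in place of 100 summed reads, 4 of the 5 members with reads were at least 2-fold lower in place of 1, with the scale kept or taken from such coding regions. At that minimum 10.3% of 117505 features passed at the scale kept, and 10.1% at the other. RNY4 crossed that line with the scaling, from 0.487 to 0.578. Depth limits the 6 members other than RNY5, which hold 57 reads in all.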
